A study of Homo sapiens with 10 samples.

Results

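The ubiquitin-specific proteases (USPs) were examined in K562 cells and in the microvesicles these cells release. Members were all probe sets whose single platform gene symbol is USP followed by a number, with or without X. This gave 129 of 54613 probe sets and 45 of 19775 genes, and each gene was represented by its brightest probe set over the 10 arrays. K562 cells are an established human line from chronic myeloid leukaemia with the BCR-ABL1 fusion. Total RNA of 5 preparations of untreated cells and 5 preparations of microvesicles from the parental line was hybridised, each from 100 ng, to Affymetrix arrays. No genotype or treatment other than the cell line was labelled for either group, so both share 1 line. The labels do not say how the vesicles were isolated, nor whether equal replicate numbers share a culture. The p-values here measure the spread between these preparations only, which may be technical. USP15 was not analysed here because its probe sets also name a microRNA gene, and USP6, USP10, USP32, USP41 and USP50 were not analysed here either.

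USPs are the most numerous family of human deubiquitinases, cysteine proteases that cut ubiquitin from proteins or from ubiquitin chains. They thereby reverse the work of ubiquitin ligases, spare proteins from the proteasome, edit ubiquitin marks on histones and DNA repair proteins, and sort receptors at endosomes. Microvesicles are membrane particles shed by cells that carry part of the parent cell's RNA. The comparison asks how far USP transcripts in vesicles differ from those in the cells.

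Values are log2 expression per probe set, so a difference of 1 is a 2-fold difference, and changes are microvesicles minus cells ± SE. Group means carry SD with n = 5 each. Array medians over all genes were 4.96 to 4.995 in cells and 5.02 to 5.13 in microvesicles, and the SD over genes was lower in microvesicles (2.06 to 2.18) than in cells (2.53 to 2.57). RNA integrity, read as the ACTB control's 3' value less its 5' value, stood at 2.26 to 2.57 in cells and 2.72 to 3.64 in microvesicles (exact permutation p = 0.00794). Its part in the changes below was not tested. Of 9 erythroid and K562 markers 8 were measured, with mean levels of 8.86 to 9.20 per cell array and 8.06 to 8.82 per microvesicle array. Of these 0 rose and 3 fell, where 35.5% of all genes rose and 31.2% fell. Markers of other cells stood lower, with mean levels per array of 3.03 to 3.22 in cells and 3.74 to 4.14 in microvesicles for monocytes and neutrophils, where 4 of 5 rose. For platelets these were 3.75 to 4.03 and 4.23 to 4.64 (3 of 4 rose), and for fibroblasts and endothelium 4.03 to 4.18 and 4.35 to 4.93 (3 of 5 rose). Lymphocyte markers stood at 4.69 to 5.18 and 5.22 to 5.67 (3 of 4 rose), with CD3D at 8.18 in cells. The monocyte marker CD14 was at 2.93 in cells and 3.48 in microvesicles. Among all genes with a mean under 6 over the 10 arrays, 50.7% rose and 13.8% fell. With a mean of at least 6, 8.09% rose and 62.4% fell. The part of other cells in the results was not tested.

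Most USP transcripts were lower in microvesicles. Of 45 genes 30 fell, 4 rose and 11 did not pass (limma adjusted p under 0.05 over all genes). Over all genes 31.2% fell, 35.5% rose and 66.6% passed in either direction. The median change was -0.82 for USP genes and 0.20 for all genes. At least 2-fold changes numbered 18 falls, against 19.8% of all genes, and 1 rise, against 11.2%. All 5 microvesicle arrays lay below all 5 cell arrays in 27 of the 45 USP genes, against 26.1% of all genes. The genes that fell with overlapping arrays were USP44, USP36 and USP39. All microvesicle arrays lay above all cell arrays in 4 of the 45, against 23.8% of all genes, and these were the 4 that rose.

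The direction of change over the arrays depended on the level of a gene, and USP probe sets gave brighter signals than most. Their median level in cells was 7.11, against 4.97 for all genes, and all 30 that fell lay above that gene median in cells. Among USP genes with a mean of at least 6 over the 10 arrays, 25 of 30 fell and 1 rose, while 62.4% of all genes at that level fell and 8.09% rose. Their median changes were -0.96 and -0.74. Below a mean of 6, 5 of 15 USP genes fell and 3 rose, where 13.8% of all genes fell and 50.7% rose. Loess normalization by level, which removes from each array its trend against the mean array, left 15 falls and 7 rises among USP genes, with 18.8% and 26.0% of all genes. The median USP change was then -0.096 (all genes 0.14). A second quantile normalization gave 13 falls and 6 rises, with 16.5% and 26.4% of all genes. Of the 30 USP genes that fell in the deposited values, 14 also fell after loess and 6 took a value above 0. Of the 4 that rose, 3 also rose. The matching shares among all genes that fell or rose are not given here. In bulk RNA, fewer vesicles carrying a transcript and less of it per vesicle cannot be told apart.

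**Figure D1:**
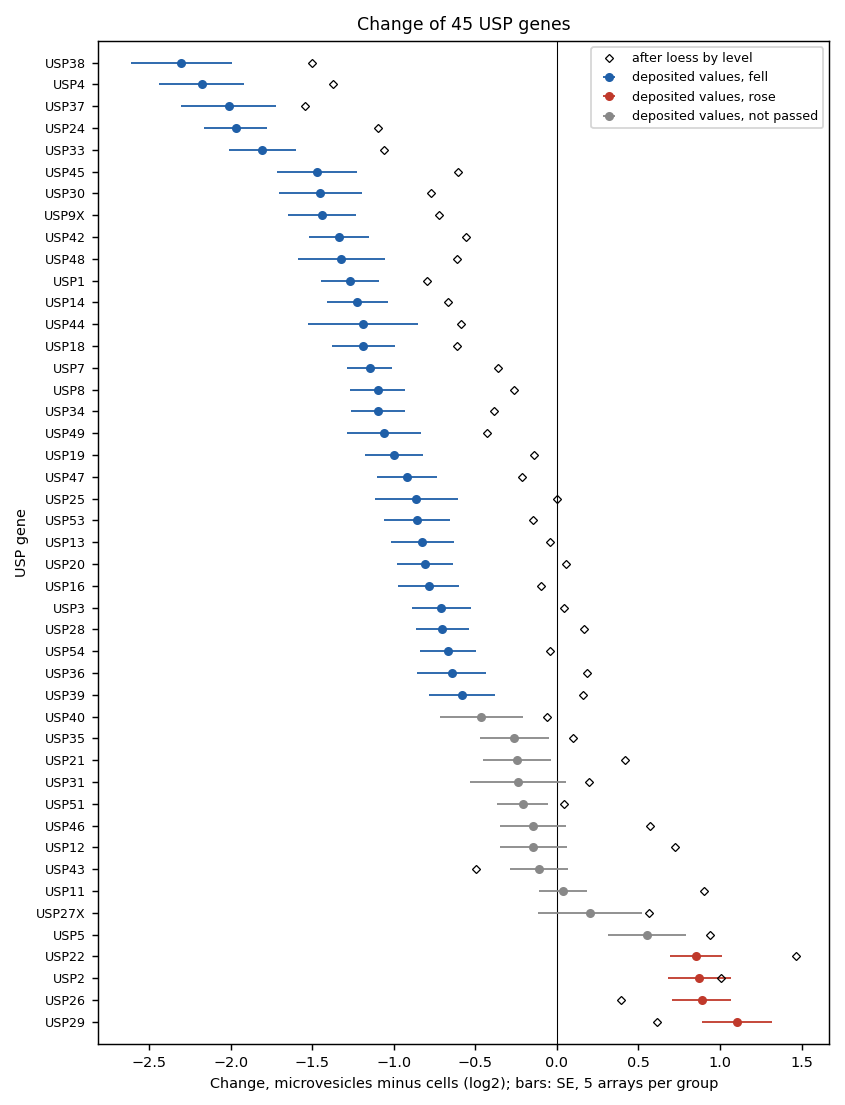
Change of each of the 45 USP genes, microvesicles minus cells (log2), as filled points with SE over 5 arrays per group, coloured by call, and the same change after loess by level as open diamonds. The falls run from -2.30 for USP38 to -0.58 for USP39, and after loess 15 USP genes fell and 7 rose.

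**Figure D2:**
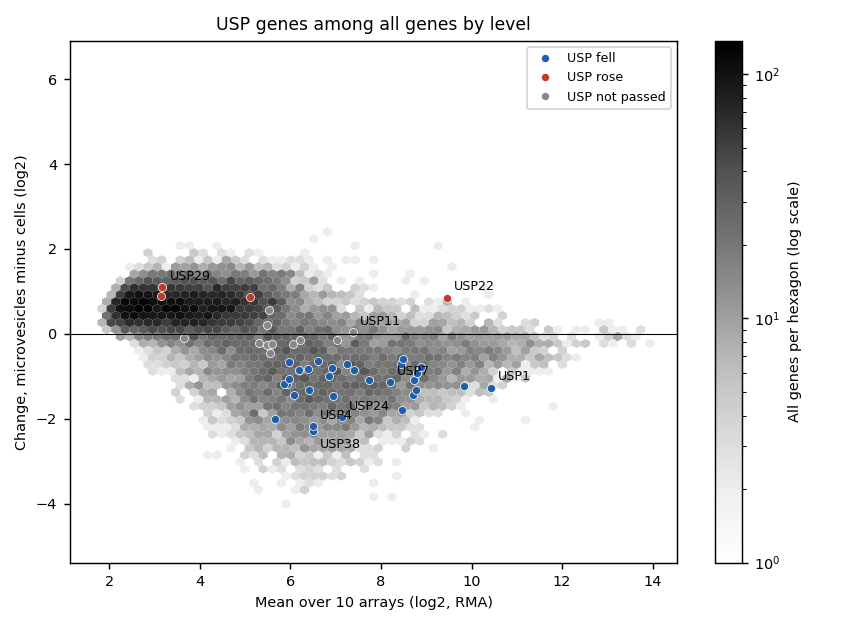
Change (log2) against mean level over 10 arrays (log2) for all 19775 genes, as hexagons shaded by gene number on a log scale, and for USP genes as points coloured by call. USP22 is the 1 USP gene with a mean of at least 6 that rose.

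Upstream windows of 4 members are shown to give the genes' context: USP38 and USP4, with the largest falls, USP11, a close relative of USP4 that did not pass, and USP22, the smallest of the 4 rises and the 1 with a mean of at least 6. They are the 250 bases before the annotated start in RefSeq (build GRCh38.p14), read 5' to 3' on the gene's strand. Capitals mark matches, on either strand, to the SP and KLF, ETS, NF-Y, NRF1 and TATA boxes, and neighbouring matches may overlap. The letters of all but the NRF1 motif are given after the windows. The windows lie at chr4:143184667-143184916, plus strand (USP38), chr3:49340054-49340303, minus strand (USP4), chrX:47232759-47233008, plus strand (USP11) and chr17:21043012-21043261, minus strand (USP22).
USP38: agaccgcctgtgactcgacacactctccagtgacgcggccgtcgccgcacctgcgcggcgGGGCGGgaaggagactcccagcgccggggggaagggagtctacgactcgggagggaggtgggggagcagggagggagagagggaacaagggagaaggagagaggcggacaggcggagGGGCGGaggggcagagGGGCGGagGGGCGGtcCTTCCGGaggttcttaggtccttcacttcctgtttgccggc
USP4: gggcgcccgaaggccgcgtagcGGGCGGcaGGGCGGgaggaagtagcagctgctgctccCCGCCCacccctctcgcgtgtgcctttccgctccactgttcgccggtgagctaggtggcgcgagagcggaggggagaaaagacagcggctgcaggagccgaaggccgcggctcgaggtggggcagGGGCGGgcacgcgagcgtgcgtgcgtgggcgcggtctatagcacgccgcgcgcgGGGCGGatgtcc
USP11: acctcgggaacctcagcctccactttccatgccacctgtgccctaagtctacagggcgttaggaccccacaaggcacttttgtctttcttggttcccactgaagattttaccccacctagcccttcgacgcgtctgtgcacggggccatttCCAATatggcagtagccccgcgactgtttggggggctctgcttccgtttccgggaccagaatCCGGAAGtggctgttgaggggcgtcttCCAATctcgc
USP22: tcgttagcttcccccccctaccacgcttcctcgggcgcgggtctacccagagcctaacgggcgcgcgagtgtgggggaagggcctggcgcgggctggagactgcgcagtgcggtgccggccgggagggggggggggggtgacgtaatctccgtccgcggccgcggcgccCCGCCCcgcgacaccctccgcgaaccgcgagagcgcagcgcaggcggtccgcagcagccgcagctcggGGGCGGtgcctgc
The SP and KLF box, GGGCGG, was found 4 times before USP38, 5 times before USP4, 2 times before USP22 and 0 times before USP11. The windows of USP11 and USP38 each held 1 ETS box, and that of USP11 also 2 NF-Y boxes. Windows were given for 34 of the 45 genes, 47 in all, since some genes have several starts. The SP and KLF box occurred in 24 of 34 windows (70.6%) of genes that fell, 3 of 4 of genes that rose and 6 of 9 of the others, against 42.6% of 35116 windows of all genes. The ETS box, CCGGAAG, occurred in 8, 0 and 2 of the windows of these same groups (8.52% of all). Windows with the NF-Y box, CCAAT, numbered 10, 0 and 2 in the same order (32.01% of all windows). The NRF1 motif was in 3, 0 and 1 of them (5.08%). The TATA box, TATAAA, was in 1, 0 and 1 (10.7%). Median GC content was 68.8% in windows of genes that fell, 69.6% of those that rose and 66.0% of the others, against 58% in all windows. A match is a description of letters and not of binding.

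The largest falls were those of USP38, USP4, USP37, USP24, USP33, USP45, USP30 and USP9X, and all 8 also fell after loess. USP38 has been linked to restraint of interferon signalling. USP38 read 7.53, 8.05, 7.98, 7.38 and 7.26 in cells replicates 1 to 5 and 6.36, 5.46, 5.43, 5.07 and 4.35 in microvesicles replicates 1 to 5. Both groups spread widely, with the highest microvesicle value in replicate 1, and they did not overlap. USP38 changed by -2.30 ± 0.31 (limma adjusted p = 3.94e-05), a 4.93-fold lower value, and by -1.50 after loess (adjusted p = 0.000736). USP24, a very large member, was more even. USP24 values ran 8.12, 8.16, 7.996, 8.11 and 8.22 over cells replicates 1 to 5 and 5.98, 6.81, 6.19, 6.07 and 5.71 over microvesicles replicates 1 to 5. The groups lay far apart, with replicate 2 the highest microvesicle array. Its change was -1.97 ± 0.19 (limma adjusted p = 3.55e-06), and -1.10 after loess (adjusted p = 0.000716).

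USP37 deubiquitinates cyclin A at the start of S phase. Values of USP37 were 6.58, 6.87, 6.86, 6.27 and 6.74 across the cell arrays and 5.30, 4.64, 5.30, 3.57 and 4.46 across the microvesicle arrays, in replicate order. Microvesicles replicate 4 was lowest, and the groups did not overlap. USP37 changed by -2.01 ± 0.29 (limma adjusted p = 7.58e-05), and by -1.54 after loess (adjusted p = 0.000654), with all 3 of its probe sets lower. In the same group of regulators of MYC, p53 and the nucleolus, USP42, which acts on p53, changed by -1.34 ± 0.18 (limma adjusted p = 4.74e-05) and by -0.55 after loess (adjusted p = 0.0276). Only 2 of its 5 probe sets fell while 3 rose, and the mean over them was -0.18 (adjusted p = 0.142). USP36, the nucleolar enzyme that stabilises MYC, changed by -0.65 ± 0.21 (limma adjusted p = 0.0162) with overlapping groups, and its sign turned after loess (0.18).

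**Figure D3:**
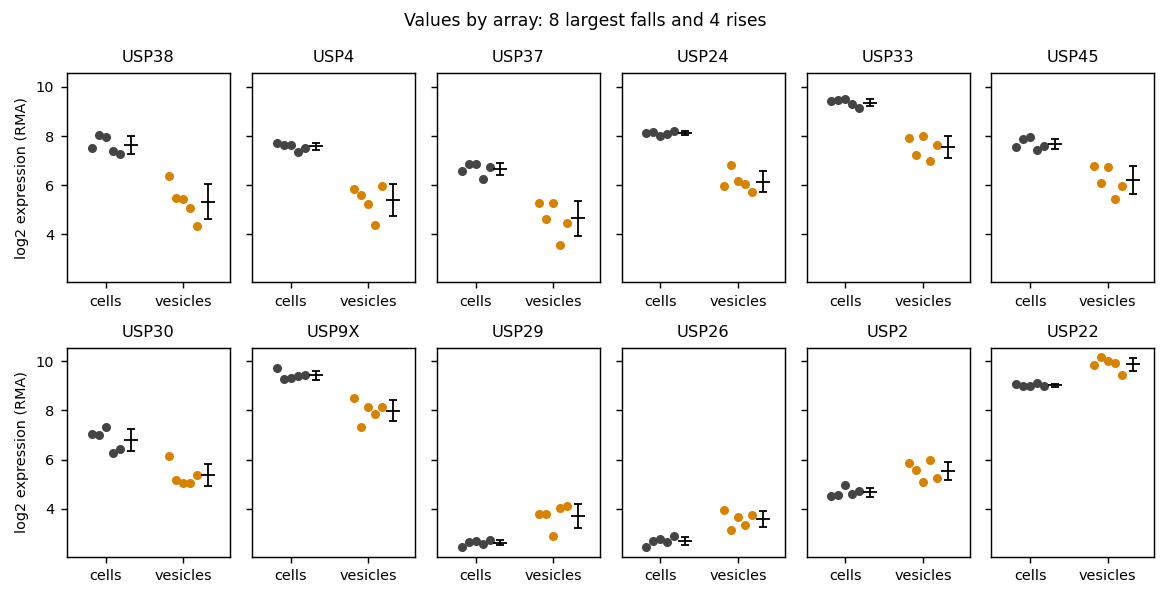
Log2 expression on each of the 5 cell and 5 microvesicle arrays, with mean and SD beside the points, for the 8 largest falls and the 4 rises among USP genes. In every panel the 2 groups do not overlap. The cells are packed more closely than the microvesicles, except for USP30, where the spreads are alike (SD 0.44 and 0.45).

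Among members that act in growth factor, TGF-beta, NF-kappaB and Wnt signalling, 4 of 5 fell and 1 rose (median -1.10, and -0.39 after loess). Over all genes 31.2% fell and 35.5% rose, and among those with a mean of at least 6 these shares were 62.4% and 8.09%. USP4 deubiquitinates the type I TGF-beta receptor. USP4 read 7.74, 7.64, 7.65, 7.36 and 7.53 in cells replicates 1 to 5 and 5.84, 5.59, 5.24, 4.38 and 5.98 in microvesicles replicates 1 to 5. Replicate 4 was the lowest microvesicle array, and the groups did not overlap. The change was -2.18 ± 0.26 (limma adjusted p = 1.61e-05), and -1.37 after loess (adjusted p = 0.000823). Of the other probe sets of USP4, 1 fell (-1.38, and -0.60 after loess). The other, at 5.50 in cells, changed by 0.34 without passing and rose after loess (0.81, limma adjusted p = 0.00357). USP9X, an X-linked enzyme, stabilises the survival protein MCL1. USP9X values ran 9.73, 9.27, 9.33, 9.42 and 9.44 over cells replicates 1 to 5 and 8.51, 7.35, 8.12, 7.85 and 8.16 over microvesicles replicates 1 to 5. No microvesicle array reached the cell range. USP9X changed by -1.44 ± 0.21 (limma adjusted p = 7.12e-05), and by -0.73 after loess (adjusted p = 0.00507). USP34, a regulator of axin, changed by -1.10 ± 0.17 and its 6 probe sets by -3.45 to -0.56. USP25 changed by -0.86 ± 0.25 in the deposited values and by 0.00 after loess. Its other probe sets stood at -1.48, -1.47 and -0.87 after loess, which passed, and at 0.08, which did not. USP2, known for stabilising cyclin D1, was the member that rose. Values of USP2 were 4.53, 4.56, 4.97, 4.59 and 4.71 across the cell arrays and 5.84, 5.58, 5.08, 5.97 and 5.26 across the microvesicle arrays, in replicate order. The groups did not overlap, although every cell value lay under the gene median of 4.97. USP2 changed by 0.87 ± 0.19 (limma adjusted p = 0.00171), and by 1.003 after loess (adjusted p = 0.000947). Of its 4 probe sets 2 rose, 1 changed by -0.11 without passing, and the mean over them was 0.52 (adjusted p = 0.00267).

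Members located at endosomes, the Golgi, the endoplasmic reticulum or mitochondria fell in 5 of 5 cases (median -1.10), where 31.2% of all genes and 62.4% of genes with a mean of at least 6 fell, and 2 of these also fell after loess (median -0.26). USP33, which deubiquitinates beta-2 adrenergic receptors, fell most. USP33 read 9.42, 9.46, 9.51, 9.30 and 9.15 in cells replicates 1 to 5 and 7.92, 7.22, 8.01, 7.01 and 7.66 in microvesicles replicates 1 to 5. The microvesicle arrays spread more widely than the cells and all lay below them. USP33 changed by -1.81 ± 0.20 (limma adjusted p = 1.07e-05), and by -1.06 after loess (adjusted p = 0.000256). USP30 sits in the outer mitochondrial membrane and opposes mitophagy. USP30 values ran 7.03, 7.02, 7.32, 6.26 and 6.43 over cells replicates 1 to 5 and 6.13, 5.19, 5.04, 5.06 and 5.38 over microvesicles replicates 1 to 5. Cells replicates 4 and 5 were the lowest cell arrays and the highest microvesicle array, replicate 1, came close to them. The change was -1.45 ± 0.25 (limma adjusted p = 0.000326), and -0.77 after loess (adjusted p = 0.021). USP8, the endosomal enzyme that acts on EGFR and ESCRT proteins, changed by -1.10 ± 0.17 (limma adjusted p = 0.000112) and did not pass after loess (-0.26). USP19, anchored in the endoplasmic reticulum, changed by -0.9996 ± 0.18 and by -0.14 after loess (adjusted p = 0.552).

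Among the 6 members of DNA damage response and replication, 5 fell and 0 rose (median -1.03, and -0.29 after loess). Of all genes with a mean of at least 6, 62.4% fell and the median change was -0.74. USP1, which removes ubiquitin from FANCD2 and PCNA, stood at 11.07 ± 0.17 in cells and 9.80 ± 0.31 in microvesicles. It changed by -1.27 ± 0.18 (limma adjusted p = 5.97e-05), and by -0.80 after loess (adjusted p = 0.000989). USP48, an enzyme for histone H2A at the BRCA1 site, changed by -1.32 ± 0.27 (limma adjusted p = 0.000931), and by -0.62 after loess (adjusted p = 0.0466), with all 5 probe sets lower. USP7, which stabilises MDM2 and p53, varied little, at 8.77 ± 0.105 in cells and 7.62 ± 0.071 in microvesicles. It changed by -1.15 ± 0.14 (limma adjusted p = 1.65e-05) and did not pass after loess (-0.36, adjusted p = 0.0592). Its 2 brighter probe sets fell and its 2 dimmer ones rose. USP47, which acts on DNA polymerase beta, and USP28, which stabilises MYC, changed by -0.92 ± 0.18 and -0.70 ± 0.16, and after loess by -0.22 and 0.16. Other probe sets of USP47 stood at -1.77, -0.95, -1.87 and -0.38 after loess, of which the last did not pass. Those of USP28 stood at -1.07 and -0.75 after loess and passed. USP11, linked to repair by homologous recombination, did not pass (described with USP4 below).

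Histone H2A and H2B deubiquitinases were mixed, with 4 falls, 1 rise and 3 not passed of 8 (median -0.48, and 0.043 after loess), where 31.2% of all genes fell and 35.5% rose. The rise was that of USP22, the catalytic subunit of the deubiquitinase module of the SAGA coactivator. USP22 read 9.09, 8.98, 8.98, 9.11 and 9.002 in cells replicates 1 to 5 and 9.84, 10.17, 10.02, 9.93 and 9.46 in microvesicles replicates 1 to 5. The cell arrays lay close together, and every microvesicle array was higher. USP22 changed by 0.85 ± 0.16 (limma adjusted p = 0.000543), a 1.81-fold higher value, and by 1.47 after loess (adjusted p = 2.12e-05). Of its other probe sets, all under the gene median in cells, 2 rose and 1 changed by -0.75 without passing. After loess the latter fell (-1.06, limma adjusted p = 0.0161), and the other 2 stood at 0.63, which passed, and 0.43, which did not. The mean over the USP22 probe sets was 0.51 in the deposited values (adjusted p = 0.0143). USP3, USP16, USP44 and USP49 fell, by -0.71 ± 0.18, -0.79 ± 0.19, -1.19 ± 0.34 and -1.06 ± 0.23. After loess 0 of these 4 passed, and USP3 stood at 0.04. USP21 and the SAGA-related USP27X and USP51 did not pass by their brightest probe sets. The 2 other probe sets of USP21 fell (-0.65 and -1.10, the latter -0.74 after loess). The mean over the USP21 probe sets also fell (-0.66, limma adjusted p = 0.00428). USP27X ran from 4.57 to 6.28 over the microvesicle arrays and from 5.18 to 5.51 over the cells.

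Ubiquitin recycling enzymes differed among themselves. USP14, which trims ubiquitin chains at the proteasome, stood at 10.46 ± 0.058 in cells and 9.23 ± 0.39 in microvesicles and changed by -1.23 ± 0.19 (limma adjusted p = 0.000113), and by -0.67 after loess (adjusted p = 0.00276). All 3 of its probe sets fell. USP13 changed by -0.82 ± 0.19 (limma adjusted p = 0.00232), and by -0.04 after loess. USP5, which takes unanchored ubiquitin chains apart, did not pass at 0.55 ± 0.24 (limma adjusted p = 0.0537), but passed after loess (0.94, adjusted p = 0.00422) and without microvesicles replicate 5. USP12 and USP46, which like USP1 depend on the cofactor UAF1, did not pass (-0.15 ± 0.20 and -0.15 ± 0.20). Both rose after loess (0.72, adjusted p = 0.0132, and 0.57, adjusted p = 0.0258), and for USP12 and USP46 the means over probe sets were 0.13 and 0.12.

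USP18, which removes the ubiquitin-like ISG15 and is induced by interferon, changed by -1.19 ± 0.19 (limma adjusted p = 0.000202), and by -0.61 after loess (adjusted p = 0.0196). USP39, a spliceosome component without protease activity, changed by -0.58 ± 0.20 (limma adjusted p = 0.021) with overlapping groups, and by 0.16 after loess. Leaving out the highest cell array, replicate 4, ended the call (limma adjusted p = 0.055). USP53 and USP54, long annotated as inactive, changed by -0.86 ± 0.20 and -0.67 ± 0.17, and by -0.14 and -0.04 after loess. Other probe sets of USP53 stood at -1.16 and -1.70 after loess, which passed, and at 0.16, which did not. The testis-enriched USP26 and USP29 rose. Values of USP26 were 2.43, 2.71, 2.76, 2.64 and 2.88 across the cell arrays and 3.96, 3.14, 3.68, 3.34 and 3.75 across the microvesicle arrays, in replicate order. USP26 lay below the gene median in both groups and the groups did not overlap. It changed by 0.89 ± 0.18 (limma adjusted p = 0.000974), and by 0.39 after loess (adjusted p = 0.103). USP29 read 2.44, 2.65, 2.69, 2.58 and 2.72 in cells replicates 1 to 5 and 3.79, 3.77, 2.89, 4.05 and 4.10 in microvesicles replicates 1 to 5. Microvesicles replicate 3 stood close to the cells. USP29 changed by 1.10 ± 0.21 (limma adjusted p = 0.000707), and by 0.61 after loess (adjusted p = 0.0257). In cells USP26 and USP29 lay at the 14.6th and 13.4th percentile of all gene signals, and without a detection call such values are not known to exceed background.

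Of the less studied members, USP45, which acts on the repair nuclease ERCC1, fell. USP45 values ran 7.57, 7.88, 7.94, 7.44 and 7.59 over cells replicates 1 to 5 and 6.79, 6.10, 6.76, 5.44 and 5.98 over microvesicles replicates 1 to 5. Replicate 4 was the lowest microvesicle array, and the groups did not overlap. Its change was -1.47 ± 0.25 (limma adjusted p = 0.000235), and -0.61 after loess (adjusted p = 0.0331). USP31, USP35, USP40 and USP43 did not pass, with changes of -0.24, -0.26, -0.46 and -0.11, and USP43 fell after loess (-0.49, adjusted p = 0.0351). Another probe set of USP31, at 6.25 in cells, was brighter there than the one used (5.72) and changed by -1.56.

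The microvesicle arrays varied more than the cell arrays, with a median SD per USP gene of 0.41 against 0.14. Of the 30 genes that fell, 28, 30, 30, 29 and 30 lay below all cell arrays in microvesicles replicates 1 to 5. The 30 genes were called from these same arrays, so such counts describe the arrays and do not test the falls. Median changes of these genes against the cell mean were -0.89, -1.33, -0.85, -1.27 and -1.22 in the same order. Replicates 2 and 4 held the lowest microvesicle value for 12 and 9 of the 30 genes, and replicates 1 and 3 the highest for 10 each. Over the 45 genes, any 2 cell arrays had a Pearson correlation of 0.983 to 0.997 and any 2 microvesicle arrays one of 0.893 to 0.952. A cell array and a microvesicle array correlated at 0.764 to 0.921. These are across genes that share their arrays, and genes are not independent replicates.

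Probe sets of the same gene did not always move together. Over all probe sets of the table, 27.0% fell and 35.4% rose, and of the 129 USP probe sets 77 fell, 20 rose and 32 did not pass. Among 34 USP genes with several probe sets, in 9 some rose and some fell, against a lower share, 13.5%, of all genes with several. These were USP7, USP9X, USP25, USP31, USP33, USP42, USP46, USP49 and USP53. Of their 13 rising probe sets 12 lay below the gene median in cells, and of the 77 that fell 75 lay above it. That median is over genes by their brightest probe set, and the matching shares over all probe sets are not given here. The same lean was seen over all genes, where 50.7% rose under a mean of 6 and 62.4% fell at 6 or more. In USP9X the 3 probe sets that fell had cell means of 9.44, 8.47 and 5.40 and the 1 that rose had 2.44. After loess some dimmer probe sets fell where the brightest did not pass, as in USP8 (-0.78), USP13 (-1.45), USP36 (-0.98) and USP49 (-1.80). In USP4 (0.81), USP7 (1.49) and USP42 (0.91) a dimmer one rose, and in USP22 a dimmer one fell (-1.06) where the brightest rose. With the mean over a gene's probe sets 29 USP genes fell and 5 rose (29.7% and 40.9% of all genes). USP7 (-0.25), USP42 (-0.18) and USP49 (-0.24) then no longer passed. USP21 (-0.66) and USP40 (-0.56), which had not passed, then fell. USP5 (0.55), with 1 probe set, then rose (limma adjusted p = 0.0447). For the 8 largest falls the mean over probe sets gave -1.48 for USP38, -1.07 for USP4, -1.76 for USP37, -1.59 for USP24, -0.83 for USP33, -1.17 for USP45, -1.60 for USP30 and -0.95 for USP9X.

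**Figure D4:**
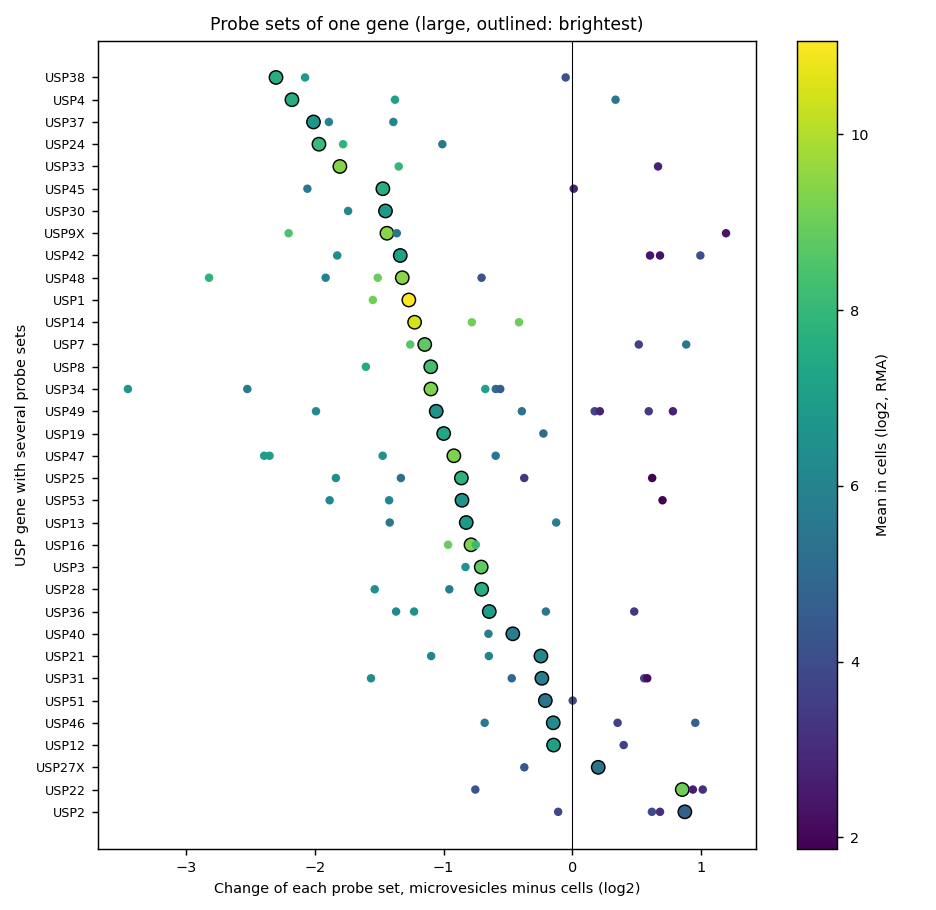
Change (log2) of every probe set of the 34 USP genes with several, coloured by mean level in cells (log2), with the brightest probe set large and outlined. Points right of 0 are mostly dark, that is dim in cells, and the probe sets of USP1, USP16, USP37, USP47 and USP48 all lie left of 0.

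Related USP genes were compared pair by pair. Of 18 pairs of close relatives 15 had both genes measured, and the change differed in 7 (exact two-sided permutation test of the within-array difference, 5 against 5, adjusted over the 15 pairs). Each of the 7 had an exact p = 0.00794, the smallest possible, and an adjusted p = 0.017. USP4 and USP11 differed most, by -2.21 ± 0.26. Values of USP11 were 7.46, 7.32, 7.10, 7.48 and 7.40 across the cell arrays and 7.46, 7.41, 7.50, 7.14 and 7.44 across the microvesicle arrays, in replicate order. The groups overlapped, and USP11 changed by 0.04 ± 0.15 (limma adjusted p = 0.832), and by 0.90 after loess (adjusted p = 0.00025). USP35 and USP38 differed by 2.04 ± 0.36. USP35 values ran 5.45, 5.73, 5.74, 5.41 and 5.69 over cells replicates 1 to 5 and 5.43, 4.83, 5.76, 5.78 and 4.93 over microvesicles replicates 1 to 5. Its groups overlapped. USP22 and USP51 differed by 1.06 ± 0.22. USP51 values ran 5.48, 5.37, 5.51, 5.35 and 5.37 over cells replicates 1 to 5 and 5.19, 4.84, 5.14, 5.48 and 5.39 over microvesicles replicates 1 to 5. USP51 too overlapped. These 3 pairs also passed after loess (differences -2.27, 1.59 and 1.42), after a second quantile normalization and with the mean over probe sets, where the differences were smaller (-1.11, 1.22 and 0.62).

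USP5 and USP13 differed by 1.38 ± 0.35. USP5 read 5.36, 4.93, 5.24, 5.34 and 5.38 in cells replicates 1 to 5 and 6.11, 5.83, 5.71, 6.41 and 4.95 in microvesicles replicates 1 to 5. USP13 values ran 6.99, 6.70, 6.75, 6.88 and 6.71 over cells replicates 1 to 5 and 5.92, 5.46, 6.52, 5.85 and 6.15 over microvesicles replicates 1 to 5. USP13 did not overlap between the groups, and USP5 did, with its lowest microvesicle value in replicate 5. USP20 and USP33, both known to bind the VHL protein, differed by 0.998 ± 0.29. Values of USP20 were 7.46, 7.16, 7.19, 7.63 and 7.198 across the cell arrays and 6.49, 6.46, 6.57, 6.88 and 6.19 across the microvesicle arrays, in replicate order. USP20 did not overlap and changed by -0.81 ± 0.17, but by 0.06 after loess. The pair passed after loess (1.11) and not with the mean over probe sets (0.022). USP2 and USP21 differed by 1.12 ± 0.25. USP21 values ran 6.20, 6.25, 6.13, 6.17 and 6.12 over cells replicates 1 to 5 and 5.85, 6.68, 5.85, 5.87 and 5.40 over microvesicles replicates 1 to 5. In USP21 microvesicles replicate 2 stood above the cells and the other 4 below. USP16 and USP45 differed by 0.68 ± 0.25. Values of USP16 were 9.24, 9.37, 9.41, 9.23 and 9.18 across the cell arrays and 8.77, 7.96, 8.87, 8.63 and 8.26 across the microvesicle arrays, in replicate order. Groups of USP16 did not overlap. USP5 with USP13 (0.99), USP2 with USP21 (0.59) and USP16 with USP45 (0.51) did not pass after loess. USP5 with USP13 was also lost without cells replicate 1, 2, 3 or 4, and USP16 with USP45 without cells replicate 2, 3 or 5, where 4 arrays against 5 leave fewer splits.

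**Figure D5:**
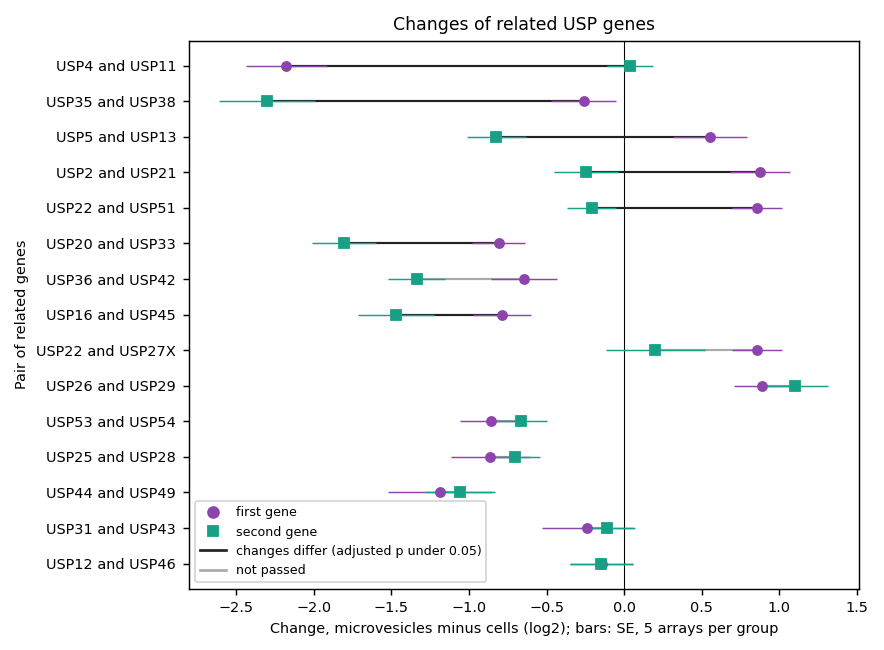
Changes (log2, with SE over 5 arrays per group) of both genes of each of 15 pairs of related USP genes, joined by a dark line where the changes differ and a grey line where the test was not passed, ordered by the size of the difference. The widest gap is that between USP4 and USP11, and USP12 and USP46 lie on each other.

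For the other 8 pairs no difference was shown. USP12 and USP46 differed by 0.003 ± 0.19, USP25 and USP28 by -0.16 ± 0.22, USP53 and USP54 by -0.19 ± 0.16 and USP26 and USP29 by -0.21 ± 0.28. Differences of USP44 and USP49 (-0.13 ± 0.55), USP31 and USP43 (-0.13 ± 0.41), USP22 and USP27X (0.65 ± 0.44) and USP36 and USP42 (0.69 ± 0.29) had wider errors. Genes of a pair are read by different probe sets, and whether these respond alike to the same amount of RNA was not tested.

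Genes of deubiquitinase families outside the rule, counted by family and not by enzyme activity, also fell more often than they rose. Of 33 measured, 21 fell and 5 rose, where 31.2% and 35.5% of all genes did, and the median change was -0.84. Among all genes with a mean of at least 6, 62.4% fell. After loess 11 of the 33 fell and 7 rose, with 18.8% and 26.0% of all genes, and the median was -0.26. The JAMM metalloproteases had 5 falls of 6. MYSM1, a histone H2A deubiquitinase, changed by -3.04 ± 0.22 (-2.19 after loess, and -1.07 over the mean of its probe sets), BRCC3 by -1.41 ± 0.22 and STAMBPL1 by -1.33 ± 0.235 (-0.13 over its probe sets). The USP-fold genes CYLD, USPL1 and PAN2 all fell (-1.41, -1.89 and -1.90), CYLD by its brightest probe set and not over the mean of its probe sets (0.047). The UCH family had 2 falls of 3 (UCHL5 -1.33 ± 0.31, UCHL3 -0.89 ± 0.21), the Josephin family 2 of 3 (ATXN3 -1.38 ± 0.32, and -0.52 over its probe sets, JOSD1 -0.84 ± 0.27, and 0.02 after loess) and the MINDY and ZUP1 genes 3 of 4 (ZUP1 -2.49 ± 0.255, MINDY2 -1.75 ± 0.22, MINDY3 -1.56 ± 0.32). The OTU family was the most divided, with 5 rises and 6 falls of 14. OTUD3 changed by 1.80 ± 0.23, OTUB2 by 1.12 ± 0.20 and ZRANB1 by 0.90 ± 0.19, while OTUD6B changed by -1.98 ± 0.24, YOD1 by -1.44 ± 0.28 and OTUD7B by -0.96 ± 0.17 (-0.26 after loess and -0.28 over its probe sets). After loess UCHL3 (-0.22), MINDY3 (-0.72) and YOD1 (-0.67), like JOSD1 and OTUD7B, did not pass. Whether these counts differ from those of the USP genes was not tested.

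Partners and substrates of USPs were read from the same fit. Of 10 cofactors 6 fell and 1 rose (median -0.97), where 31.2% and 35.5% of all genes did. Among all genes with a mean of at least 6 these shares were 62.4% and 8.09%. After loess 5 fell and 4 rose (median -0.37), with 18.8% and 26.0% of all genes. UAF1, encoded by WDR48, changed by -0.93 ± 0.245 and by -0.07 after loess. Within the SAGA deubiquitinase module, ATXN7L3 rose by 0.77 ± 0.17 (1.56 after loess) and ATXN7 changed by -2.34 ± 0.28 (-1.28 over its probe sets), beside the rise of USP22. ENY2 did not pass (0.09 ± 0.19), rose after loess (0.57, limma adjusted p = 0.0124) and stood at -0.496 over the mean of its probe sets. STAM, the partner of USP8, changed by -1.47 ± 0.23 and G3BP1 by -1.42 ± 0.22. Of 13 known substrates 8 fell and 1 rose (median -0.84), and after loess 4 fell and 2 rose (median -0.22), beside the same shares of all genes. The Fanconi protein FANCI changed by -2.24 ± 0.38, the checkpoint mediator CLSPN by -2.16 ± 0.25 (-0.59 over its probe sets) and the methyltransferase DNMT1 by -1.81 ± 0.22. SNCAIP changed by 0.83 ± 0.23 but was dim, at 3.12 in cells and 3.95 in microvesicles. It did not pass after loess (0.42, limma adjusted p = 0.138). The ubiquitin precursor UBB stood at 13.27 in cells and changed by -0.70 ± 0.14, and the activating enzymes UBA1 and UBA6 changed by -1.47 ± 0.24 and -1.53 ± 0.20. UBA1 changed by -0.26 over the mean of its probe sets.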

How the data were processed

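The deposited values are log2 expression per probe set made by RMA, per the submitters' processing notes, which name no version. RMA subtracts background, makes probe intensity distributions alike and summarises probes, so a different total amount of RNA per vesicle is not visible. Control probe sets and probe sets naming several genes or none were left out, and symbols were updated through the gene number in RefSeq. Microvesicles were compared with cells by limma 3.58.1 in R 4.3.3 (lmFit, eBayes, 1 mean per group, two-sided), with Benjamini-Hochberg adjustment over 19775 genes, no filter on dim genes and no detection call. Single probe sets were adjusted over all 54613. Loess by level used a span of 0.3 on each array against the mean array. The fit was tested on simulated data. For arrays, their number limits the precision. Members, lists, pairs and tests were chosen with earlier results of these data known. Values per array are given for the 8 largest falls, up to 8 rises and both genes of each pair that passed, and of other lists up to 3 rises and 3 falls are named. Genes the text discusses beside these, such as WDR48, ENY2, JOSD1 and USP7, were chosen by role. Alternatives were scaling, probe set rule, filter, variance model, array weights, exact permutation test, replicate block and leaving out each array.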

Additional observations from a re-analysis of the deposited data

Results flagged for a closer look

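In 2 of 90 groups of 5 arrays (45 USP genes in cells and in microvesicles) 1 array stood far from the others, where chance gives about 1 in 20. For USP11 microvesicles replicate 4 was at 7.14, while the others lay between 7.41 and 7.50. For USP29 microvesicles replicate 3 was at 2.89, while the others lay between 3.77 and 4.10.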

How the results depend on the processing

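The number of USP genes that fell was 30 and stayed between 29 and 31 with each array left out, and the number that rose was 4 (4 to 5). Normalization that depends on signal level and the filter on dim genes moved some counts by over 1.5 times. USP genes that fell numbered 15 after loess and 13 after a second quantile normalization, and 7 rose after loess. Genes of the other deubiquitinase families that fell numbered 11 and 9 under these, and 8 rose after quantile normalization. The count of all genes past the threshold was 8500 after quantile normalization and 7058 among genes above the median level. In the latter, 2 USP genes and 2 genes of the other deubiquitinase families rose because fewer genes were tested. The 7 pairs became 4 after loess and 4 after quantile normalization, 5 with the mean over probe sets, and 5 to 8 with an array left out. The cause of the difference between scalings was not tested.

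Signs turned after loess for USP25 (0.00069), USP20 (0.056), USP3 (0.043), USP28 (0.16), USP36 (0.18), USP39 (0.16), USP35 (0.096), USP21 (0.42), USP31 (0.20), USP51 (0.043), USP46 (0.57), USP12 (0.72) and the pair USP31 and USP43 (0.69). After quantile normalization they stood at 0.036, 0.10, 0.071, 0.22, 0.19, 0.19, 0.10, 0.39, 0.21, 0.090, 0.56, 0.74 and 0.63 in the same order. With the mean over probe sets USP46 stood at 0.12, USP12 at 0.13, USP27X at -0.086, USP25 with USP28 at 0.31 and USP36 with USP42 at -0.42. USP11 was at -0.059 with arrays centred on their median. Leaving out arrays turned signs of values near 0: USP11 (-0.025 to 0.098), USP31 (-0.42 to 0.021), USP46 (-0.25 to 0.0077), USP12 (-0.27 to 0.0063) and USP43 (-0.18 to 0.0017). The same held for the difference between the changes of USP12 and USP46 (-0.073 to 0.16), USP25 and USP28 (-0.27 to 0.030), USP31 and USP43 (-0.41 to 0.17), and USP44 and USP49 (-0.51 to 0.23).

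Replicate numbers were not taken as pairs. Deviations of arrays with the same number correlated at -0.028 to 0.12. For cells replicates 1, 3, 4 and 5, though not 2, the same-numbered microvesicle array was still the best match of the 5. Whether equal numbers share a culture or batch was not tested. With the replicate block 30 USP genes fell and 4 rose, with no call changed among the 45. Dim genes have no detection call, so the size of changes near or under the gene median is uncertain.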
